A study of Anolis sagrei with 15 samples.

Results

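The CCN family of matricellular proteins was described in the embryonic eye of the brown anole, *Anolis sagrei*, as the gene models of the deposited count table whose symbol is CCN1, CCN2, CCN3, CCN4, CCN5 or CCN6. All 6 symbols were found, under 8 of the 20235 gene models, because CCN1 and CCN2 are each listed for a pair of gene models. The family was selected on the CPM of CCN3, which was high in the central libraries, so the central levels of CCN3 are given as a description with no test, whereas the other members were tested. The posterior globe, the back of the eye with retina, pigment epithelium and the tissue behind them, was sampled from embryos at Sanger stage 16.5 in 3 regions (central, temporal and nasal), with 5 libraries per region. Tissue of each region was pooled from 3 embryos of mixed sex per the paper, no treatment or genotype separates the groups, and the 3 regions share replicate numbers. Counted reads ranged from 15177438 to 27035312 per library, and levels are counts per 1000000 counted reads (CPM, scaled by TMM). These do not correct for gene length and are therefore compared mainly between libraries. Sums and shares over several genes, and levels called low, thus also depend on gene length.

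CCN proteins are secreted, cysteine-rich proteins that sit in the extracellular matrix and modulate signalling rather than holding the tissue together. They are built from an insulin-like growth factor binding protein (IGFBP) module, a von Willebrand type C module, a thrombospondin type I repeat and, except in CCN5, a cysteine knot, and they bind integrins, heparan sulphate proteoglycans and lipoprotein receptor-related proteins. CCN1 and CCN2 (connective tissue growth factor) are widely used readouts of the transcriptional coactivators YAP and TAZ, while CCN3 (NOV) is known in mammals to bind NOTCH1 and often to restrain growth and fibrosis.

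CCN3 (ANOSAT011373), for whose high central level the family was chosen, is described here with no test of that level. It was at 25.1, 9.01, 31.1, 57.6 and 23.7 CPM in central libraries 1 to 5, against 1.25, 0.92, 3.37, 1.49 and 2.23 CPM in temporal libraries 1 to 5 and 1.88, 1.42, 1.72, 1.16 and 1.07 CPM in nasal libraries 1 to 5. Every central library was above every temporal and nasal one, and the lowest central library was central replicate 2. Central libraries lay above all nasal ones in 7.35% of the gene models tested and above all temporal ones in 3.53%. The means were 29.3 ± 17.8 CPM in central, 1.85 ± 0.978 CPM in temporal and 1.45 ± 0.348 CPM in nasal libraries (SD, n = 5 each), from 2638, 183 and 153 reads. The fitted log2 fold change was 4.33 (SE 0.43) for central minus nasal and 3.99 (SE 0.42) for central minus temporal. Leaving out each library in turn gave 3.93 to 4.59 and 3.59 to 4.30. Between the outer regions CCN3 was tested: temporal minus nasal was 0.34 (SE 0.43, adjusted p = 0.785 by the quasi-likelihood test of edgeR, with all p-values Benjamini-Hochberg adjusted over the gene models tested), so no difference was detected there.

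**Figure D1:**
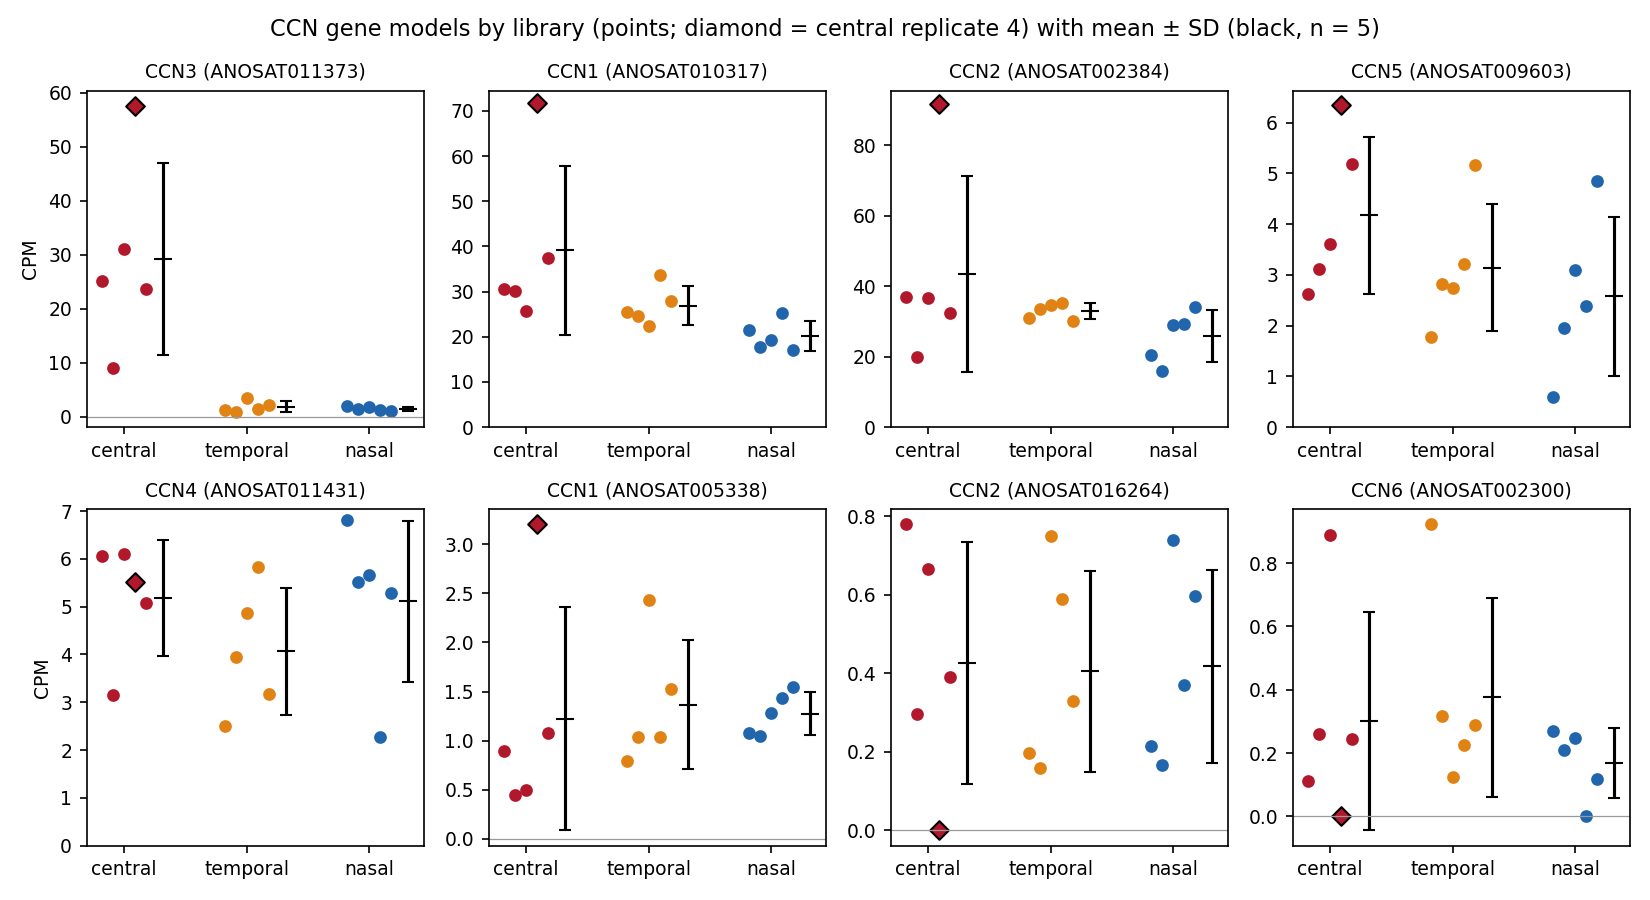
CPM (vertical axes, linear) of the 8 CCN gene models in the 15 libraries, grouped as central, temporal and nasal, with the mean and SD of 5 libraries in black and central replicate 4 as a diamond. The 5 central libraries of CCN3 lie between 9.01 and 57.6 CPM, above all 10 others, whereas CCN4 and both low copies overlap between regions.

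The part that CCN3 took of all reads counted on CCN gene models is given as a description, since CCN3 was chosen for its high central level. Its share was 22.9% ± 5.84 in central libraries (range 13.6% to 29.6%), against 2.61% ± 1.36 in temporal and 2.63% ± 0.831 in nasal libraries (SD, n = 5 each). The summed level of the other members overlapped between central (57.5 to 178.6 CPM) and temporal (62.8 to 79.8 CPM) libraries, and it was 42.6 to 63.6 CPM in nasal ones. In these bulk samples a larger number of cells that express a gene and more RNA of that gene per cell cannot be told apart.

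CCN1 (ANOSAT010317), an immediate early gene product that promotes cell adhesion and migration, was higher in central than in nasal tissue. It was the tested member with a difference detected in the fit by region alone. It was at 30.6, 30.2, 25.7, 71.8 and 37.5 CPM in central libraries 1 to 5, against 25.5, 24.6, 22.5, 33.7 and 28.0 CPM in temporal and 21.5, 17.7, 19.3, 25.3 and 17.1 CPM in nasal libraries 1 to 5. Central and nasal libraries did not overlap, central libraries overlapped temporal ones, and the central library was the highest of the 3 regions and the nasal one the lowest at all 5 replicate numbers. Central minus nasal was 0.96 on the log2 scale (SE 0.23, 1.94-fold, adjusted p = 0.00578 by edgeR). Without central replicate 4, the highest library, the change was 0.62 with an adjusted p of 0.00541, so the call did not rest on it. Central minus temporal was 0.54 (SE 0.22, adjusted p = 0.202), or 0.20 without central replicate 4 (adjusted p = 0.564). Temporal minus nasal was 0.42 (SE 0.23, adjusted p = 0.370). With the replicate number as a block, the adjusted p was 0.0386 for central minus temporal and 0.0688 for temporal minus nasal. Dropping central replicate 4 from the blocked fit gave 0.0795 for central minus temporal and 0.00640 for temporal minus nasal.

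The other CCN1 gene model, ANOSAT005338, had 383 reads in all. It averaged 1.22 ± 1.14 CPM in central, 1.37 ± 0.656 CPM in temporal and 1.27 ± 0.220 CPM in nasal libraries (SD, n = 5 each). Central replicate 4 was again the highest library, at 3.20 CPM, while the other central libraries ranged from 0.445 to 1.07 CPM. None of its 3 contrasts passed the test (adjusted p = 0.919 to 0.964 by edgeR). The RefSeq annotation of another assembly of this species lists CCN1 once, and 6 of the 8 RefSeq genes beside it also lie beside ANOSAT010317 in the table, whereas 0 of 8 lie beside ANOSAT005338.

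CCN2 (ANOSAT002384), a matrix protein induced by TGF-beta and mechanical load, was at 36.8, 20.03, 36.5, 91.7 and 32.5 CPM in central libraries 1 to 5. It was at 31.1, 33.6, 34.6, 35.2 and 30.1 CPM in temporal and 20.6, 16.0, 29.0, 29.4 and 34.2 CPM in nasal libraries 1 to 5. Central libraries overlapped those of both other regions, and central replicate 4 stood far above the rest. Central minus nasal was 0.75 (SE 0.30, adjusted p = 0.0918 by edgeR), which missed the threshold. The adjusted p was 0.0488 with the replicate block, 0.0425 by DESeq2 and 0.0217 without central replicate 2, but without central replicate 4 the change was 0.28 with an adjusted p of 0.364. Central minus temporal was 0.40 (SE 0.29, adjusted p = 0.566) and fell to -0.07 without central replicate 4, while temporal minus nasal was 0.35 (SE 0.30, adjusted p = 0.638).

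The other CCN2 gene model, ANOSAT016264, had 127 reads in all. It averaged 0.426 ± 0.309 CPM in central, 0.405 ± 0.256 CPM in temporal and 0.417 ± 0.245 CPM in nasal libraries (SD, n = 5 each), and no contrast passed the test (adjusted p = 0.973 to 0.985 by edgeR). Central replicate 4 had 0 reads, which allows up to 0.192 CPM (3 reads), although it had the highest CPM of the other CCN2 gene model. RefSeq lists CCN2 once, and as for CCN1, the gene model with more reads shared 6 of 8 RefSeq neighbours and the low one 0 of 8. Where reads fit both gene models of a symbol, their division between the pair is not stated in the sources used here, so the low copies are uncertain.

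**Figure D2:**
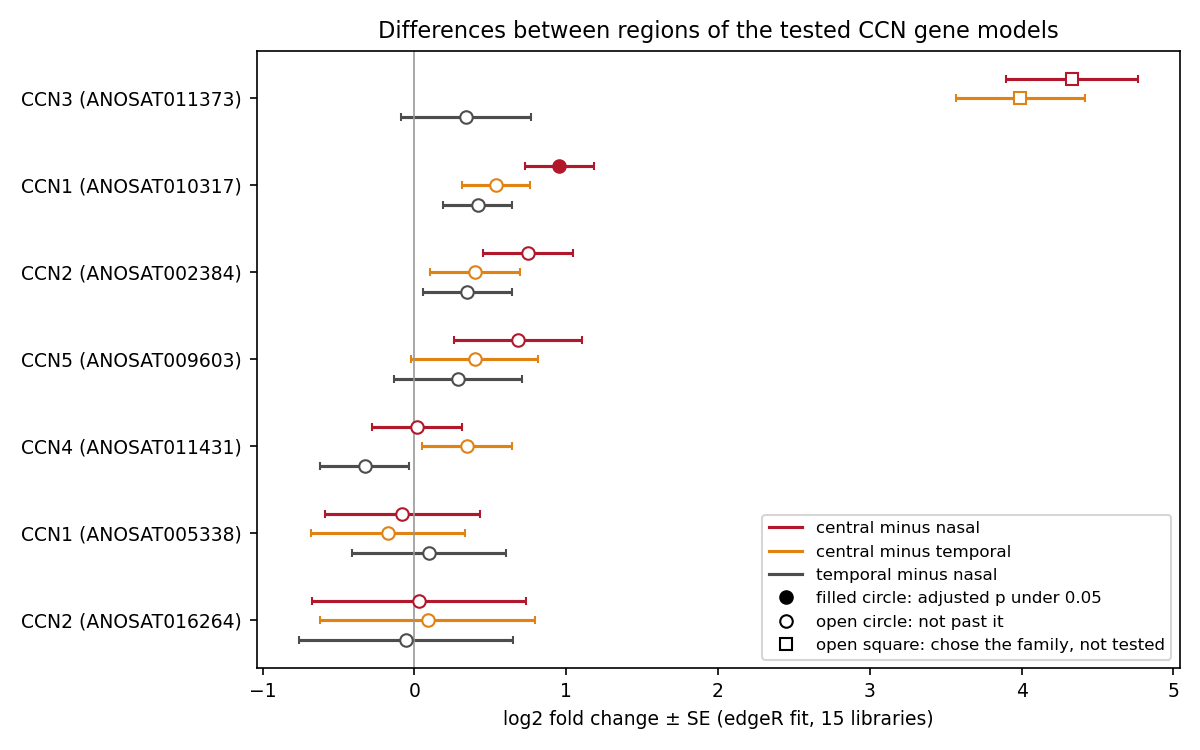
log2 fold change ± SE (horizontal axis) of the 7 tested CCN gene models for central minus nasal (red), central minus temporal (orange) and temporal minus nasal (grey). The filled circle, CCN1 at 0.96, is the 1 tested contrast with an adjusted p under 0.05 in the fit by region alone. The open squares of CCN3 at 4.33 and 3.99 carry no test.

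CCN5 (ANOSAT009603), the member without a cysteine knot, which in mammals restrains smooth muscle growth, was low throughout. It was at 2.62, 3.12, 3.61, 6.35 and 5.18 CPM in central, 1.78, 2.83, 2.75, 3.21 and 5.16 CPM in temporal and 0.590, 1.96, 3.10, 2.38 and 4.84 CPM in nasal libraries 1 to 5. The regions overlapped, yet within each replicate number the central library was above both others (5 of 5). Central minus nasal was 0.69 (SE 0.42, adjusted p = 0.302 by edgeR), and the replicate block gave 0.82 with an adjusted p of 0.0467. Without central replicate 4 the blocked adjusted p was 0.0754. Central minus temporal was 0.40 (adjusted p = 0.726) and temporal minus nasal 0.29 (adjusted p = 0.821).

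CCN4 (ANOSAT011431), a WNT-induced member, showed no ordering of the regions. It was at 6.07, 3.15, 6.10, 5.51 and 5.08 CPM in central, 2.50, 3.94, 4.87, 5.84 and 3.18 CPM in temporal and 6.82, 5.51, 5.66, 2.28 and 5.28 CPM in nasal libraries 1 to 5. Every pair of regions overlapped. Its log2 fold changes were 0.02 (SE 0.29) for central minus nasal, 0.34 (SE 0.30) for central minus temporal and -0.33 (SE 0.30) for temporal minus nasal, with adjusted p = 0.980, 0.643 and 0.667 by edgeR.

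CCN6 (ANOSAT002300), which in humans is needed for cartilage upkeep, had 84 reads in all and was the member left out by the filter on low counts. It ranged from 0 to 0.888 CPM in central, 0.125 to 0.922 CPM in temporal and 0 to 0.268 CPM in nasal libraries. Central replicate 4 and nasal replicate 4 had 0 reads, which allows up to 0.192 and 0.159 CPM, so a regional difference was not detectable at this depth (adjusted p = 0.638 to 0.935 when no filter was applied).

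In the fit by region alone, which ignores the replicate number, CCN1 was thus called in central minus nasal. This is 1 of the 6 tested members other than CCN3. The background was 18.4% of all 15910 gene models tested (10.4% higher and 7.94% lower in central). The count is near that background. The central libraries of CCN1 lay above all nasal ones, as those of 7.35% of gene models did. In central minus temporal 0 of 6 members were called, against 6.78% of gene models (3.54% higher and 3.24% lower), and in temporal minus nasal 0 of 7, against 6.59% (4.4% higher and 2.19% lower). CCN1 in central minus temporal had an unadjusted p of 0.0276 and no other member one under 0.05 in these contrasts. With the replicate block, CCN1, CCN2 and CCN5 were called in central minus nasal, where 27.9% of gene models were, and CCN1 in central minus temporal, where 12.7% were. DESeq2 called 0 members in central minus temporal and in temporal minus nasal, and limma-voom called 0 in central minus temporal and 1, CCN1, in temporal minus nasal (adjusted p = 0.0431).

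Summed levels of tissue markers differed between libraries, and central replicate 4 stood apart. Its connective tissue markers (COL1A1, COL1A2, COL3A1, DCN and others, 9 of 10 symbols found) summed to 3000 CPM against 304 to 1041 CPM in the other central libraries, its endothelial and mural markers to 397 against 211 to 235 CPM, and its cartilage and sclera markers to 705 against 192 to 384 CPM. It also had 5241 gene models at 0 reads against 1618 to 2744 in the 14 other libraries, whereas its retinal neuron markers summed to 2209 CPM, below the other central libraries (2490 to 3145 CPM). The markers of the labelled tissue were abundant in every library: photoreceptor markers summed to 12670 to 14820 CPM in central, 9336 to 13320 CPM in temporal and 8371 to 10880 CPM in nasal libraries, retinal progenitor and glial markers to 1806 CPM or more, and pigment epithelium markers to 1710 CPM or more. Blood markers ranged from 230 to 1655 CPM over all libraries and skeletal muscle markers from 10.02 to 24.4 CPM.

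The connective tissue sum varied with several members within regions. This is given as a description, since the sum and the member were measured in the same library and share its pool and depth. For CCN2 the within-region r was 0.83 over 15 libraries and 0.71 over 14 without central replicate 4, and for CCN5 it was 0.71 and 0.70. It was 0.59 and 0.20 for CCN1, and 0.64 and 0.45 for CCN3. CCN3 was at 9.01 CPM in central replicate 2, where the sum was 304 CPM, and at 0.92 to 3.37 CPM in temporal and 1.07 to 1.88 CPM in nasal libraries, where it was 301 to 1147 CPM. Other marker sums varied with some members as closely or more closely. For the cartilage and sclera sum, within-region r was 0.725 for CCN3 and 0.849 for CCN2. Without central replicate 4 these were 0.571 and 0.673. For CCN1 the endothelial and mural sum gave 0.744, but 0.079 without that library. For CCN5 the photoreceptor sum gave -0.806 with that library and -0.812 without it. The part of connective tissue or of other tissues in these levels was not tested.

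**Figure D3:**
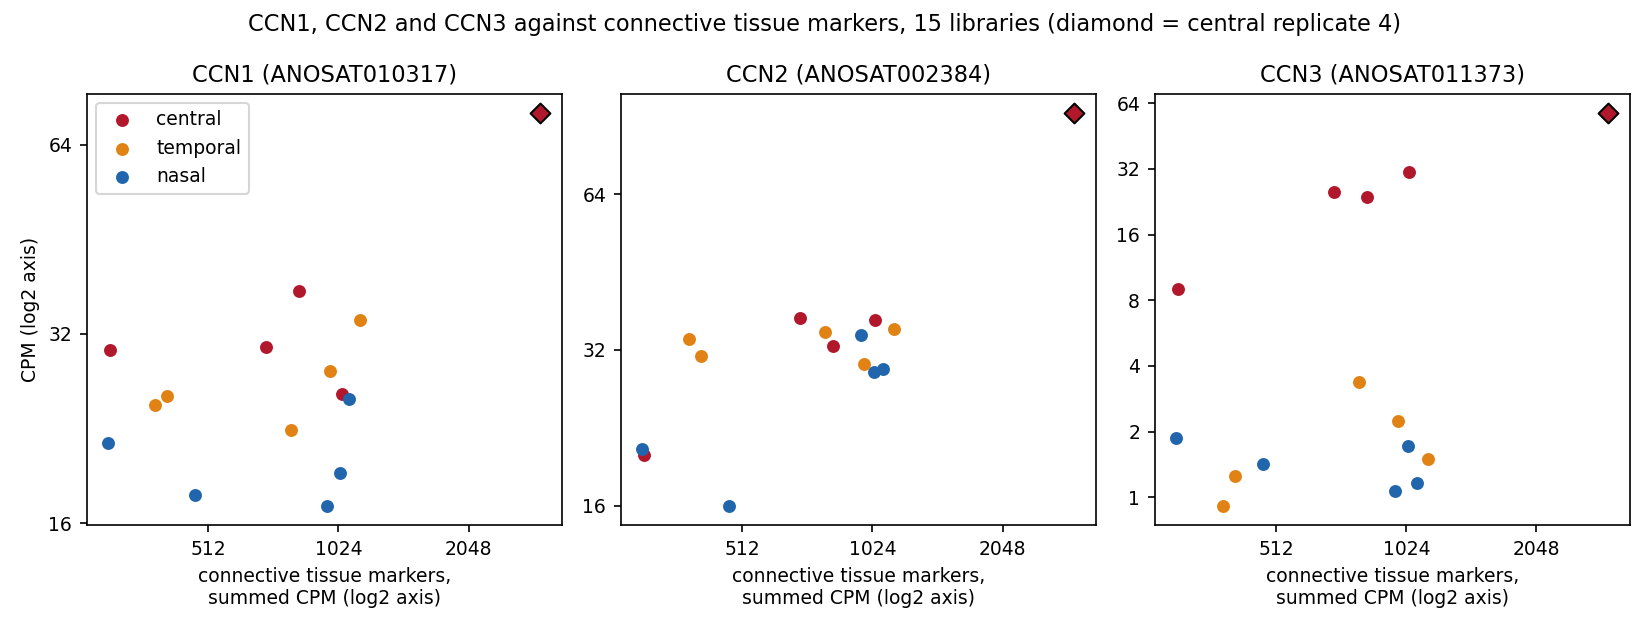
CPM of CCN1, CCN2 and CCN3 (vertical axes, log2) against the summed CPM of connective tissue markers (horizontal axes, log2) in 15 libraries coloured by region, with central replicate 4 as a diamond at 3000 CPM. The sums of the other 14 libraries lie between 301 and 1147 CPM, and the regions of CCN2 overlap.

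The summed markers of the optic nerve head and lens lists differed between regions as well. The optic nerve head list (PAX2, PMP2, GFAP, SOX10, MBP and others) summed to 767 to 1063 CPM in central, 627 to 812 CPM in temporal and 303 to 414 CPM in nasal libraries, with OLIG2 and VAX1 averaging under 1 CPM over all 15 libraries. PAX2, which marks the optic stalk and its astrocyte precursors, averaged 29.0 ± 5.89 CPM in central, 0.437 ± 0.223 CPM in temporal and 0.184 ± 0.0878 CPM in nasal libraries (SD, n = 5 each). MBP, a myelin gene of the same list, was at 71.4 ± 7.87 CPM in central, 170 ± 32.0 CPM in temporal and 71.5 ± 17.2 CPM in nasal libraries (SD, n = 5 each). The lens list summed to 169 to 233, 68.6 to 108 and 25.4 to 40.5 CPM in the same order of regions, mostly from CRYAB. Its gene models ANOSAT017970 and ANOSAT016598 averaged 149 and 28.95 CPM in central, 52.1 and 21.4 CPM in temporal and 10.5 and 16.5 CPM in nasal libraries. BFSP2 also averaged highest in central and lowest in nasal libraries, at 10.2 ± 3.47, 5.35 ± 1.22 and 2.06 ± 0.699 CPM in central, temporal and nasal ones. It passed in central minus nasal (adjusted p = 1.36e-05 by edgeR), central minus temporal (0.0494) and temporal minus nasal (0.0054). The means of CRYBB1 had the same order, at 2.19 ± 1.72, 1.81 ± 2.27 and 0.740 ± 0.358 CPM in central, temporal and nasal libraries. Its regions overlapped and no contrast of CRYBB1 passed (adjusted p = 0.172 to 0.912 by edgeR). CRYAA, CRYBA1, CRYBB2 (ANOSAT016346) and LIM2 (ANOSAT015913) averaged more in temporal than in central libraries. Of these, CRYBA1 passed in central minus nasal (adjusted p = 0.026 by edgeR) and in temporal minus nasal (0.00652). Of the lens list, BFSP1, CRYAA, LIM2 and MIP averaged under 1 CPM over all 15 libraries. CRYAA and a gene model of LIM2 nonetheless averaged 1.12 and 1.08 CPM in temporal libraries, and MIP reached 2.88 CPM in central replicate 4. The part of these cell types in the CCN3 level was not tested.

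Genes were ranked by likeness to the profile of CCN3, which was chosen as high in central libraries. A high central level of the top genes is therefore built into the ranking. Over the 15 libraries and 11796 gene models compared, Pearson's r of log2 CPM with CCN3 was highest for TMEM26 (0.970), PDZRN3 (0.956), TENT5A (0.953), PAX2 (0.945) and NDRG3 (0.935). TMEM26 averaged 43.5 ± 11.7 CPM in central, 12.6 ± 2.18 CPM in temporal and 11.5 ± 1.12 CPM in nasal libraries, and PDZRN3, an E3 ubiquitin ligase, 285 ± 35.2, 44.3 ± 1.89 and 39.7 ± 3.28 CPM (SD, n = 5 each). The likeness was mostly between regions: after the mean of each region was removed, r was 0.046 to 0.671 for these 5 genes, highest for TMEM26 and lowest for NDRG3.

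**Figure D4:**
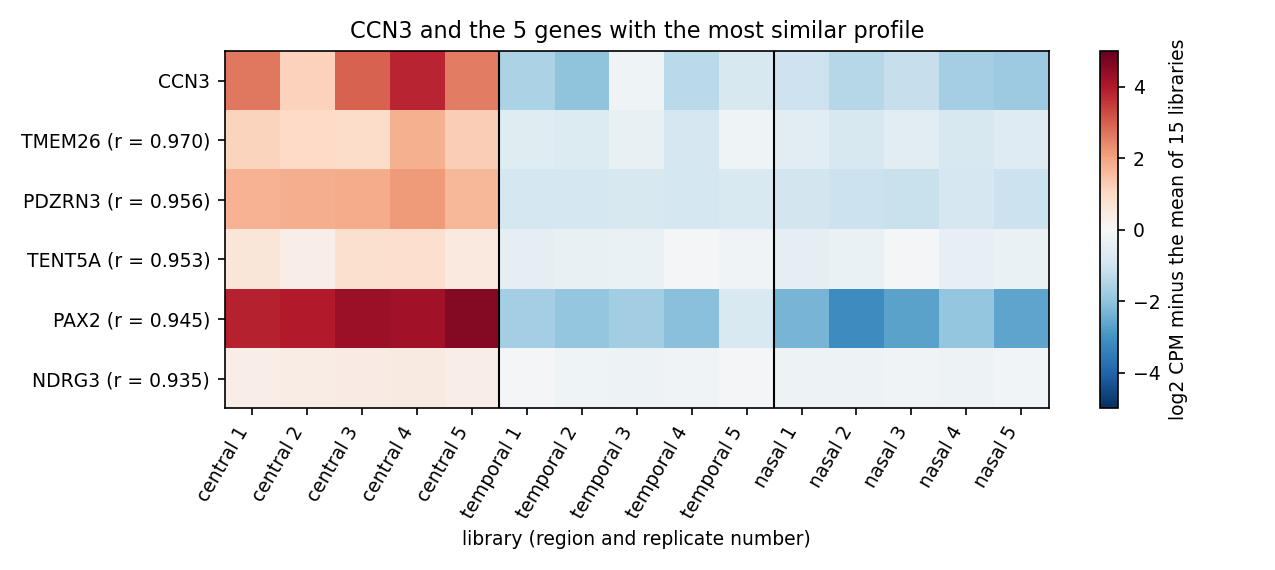
log2 CPM minus the mean of 15 libraries (colour scale) for CCN3 and the 5 genes with the highest correlation with it, one column per library ordered central, temporal, nasal. All 6 genes are above their mean in the 5 central libraries, which the ranking by likeness to CCN3 builds in. CCN3 has its lowest central value in central replicate 2.

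For CCN1 the most similar profiles were those of PROS1 (protein S, r = 0.940), ITGB5 (an integrin beta chain, 0.940), VCP, MCOLN1 and FBXO7 (0.915). Without central replicate 4 these ranked 4, 36, 52, 75 and 182, so the order depended on that library. Within regions r was 0.913 for PROS1 and 0.918 for ITGB5, or 0.752 and 0.740 without central replicate 4. For CCN2 the most similar were SERPINF1 (pigment epithelium-derived factor, r = 0.905), THBS4 (0.890), BOC, GPC4 and SPTBN1 (0.857), which ranked 6, 8, 11, 38 and 3 without that library. Here the likeness lay within regions, with r = 0.961 for THBS4, a thrombospondin of the matrix, and 0.922 without central replicate 4. CCN1 and CCN2 had r = 0.733 with each other over 15 libraries and 0.344 without central replicate 4, so that relation rested largely on that library.

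Among receptors and co-receptors of CCN proteins, 4 of 23 tested gene models rose and 1 fell in central against nasal tissue, 1 rose and 2 fell in central against temporal tissue, and 0 passed in temporal against nasal tissue. These are 21.7%, 13% and 0% of the list, against 18.4%, 6.78% and 6.59% of all gene models tested. With the replicate block 7, 4 and 2 passed in the same order, where 27.9%, 12.7% and 13.9% of gene models did. The median log2 fold changes were -0.04, -0.04 and 0.14, against -0.03, -0.01 and -0.01 over all gene models tested. SDC4, a heparan sulphate proteoglycan and co-receptor for CCN1 and CCN2, rose in central tissue against both others: it averaged 49.2 ± 2.82 CPM in central, 34.4 ± 3.38 CPM in temporal and 29.6 ± 0.949 CPM in nasal libraries (SD, n = 5 each; adjusted p = 1.48e-05 against nasal and 0.00147 against temporal by edgeR). NOTCH1, the receptor that CCN3 binds in mammals, fell by 0.67 on the log2 scale in central against nasal tissue (15.7 ± 1.73 and 25.0 ± 4.12 CPM, adjusted p = 0.00188). NOTCH1 against temporal (adjusted p = 0.0497) lost the call without any 1 of 11 libraries. ITGAM (ANOSAT014110), a leukocyte integrin chain, was barely detected, at 1.30 ± 0.916 CPM in central and 0.0495 ± 0.0517 CPM in nasal libraries (adjusted p = 0.00354), and it passed in temporal against nasal tissue with the replicate block (0.0359, against 0.0868 without it). Another gene model of ITGAM, ANOSAT013877, passed in no contrast (adjusted p = 0.888 to 0.997 by edgeR). It averaged 0.593 ± 0.364 CPM in central and 0.691 ± 0.293 CPM in nasal libraries. ANOSAT013879 of ITGAM had 88 reads and was not tested. ITGB5 (adjusted p = 0.0349) and ITGA2 (0.0492) also rose against nasal tissue, but without central replicate 4 their adjusted p was 0.0833 and 0.151, and they lost the call when any 1 of 6 and of 12 libraries was left out. Of the main integrin chains that bind CCN proteins, ITGAV passed in no contrast, with or without the replicate block, and ITGB1 passed in central against nasal tissue with the block (adjusted p = 0.0228) but not without it (0.0550), at 29.9 ± 4.18, 33.9 ± 3.34 and 29.2 ± 3.17 CPM for ITGAV and 106 ± 27.8, 91.7 ± 7.84 and 80.9 ± 7.60 CPM for ITGB1 in central, temporal and nasal libraries.

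Of 13 tested regulators known to act on CCN1 and CCN2, which belong to the Hippo pathway or are SRF cofactors, 1 passed the test in central against nasal tissue (7.69%, against 18.4% of all gene models). VGLL4, a repressor of TEAD factors, rose in central against nasal tissue (66.0 ± 3.68 and 51.9 ± 3.96 CPM, log2 0.35, adjusted p = 0.00622 by edgeR). In central minus temporal and temporal minus nasal 0 passed, where 6.78% and 6.59% of all gene models did. With the replicate block 5 passed in central against nasal tissue, 0 in central against temporal tissue and 1 in temporal against nasal tissue, where 27.9%, 12.7% and 13.9% of gene models did. The coactivator WWTR1 (TAZ) was at 16.7 ± 8.48 CPM in central, 16.3 ± 2.12 CPM in temporal and 13.6 ± 2.24 CPM in nasal libraries (adjusted p = 0.463 to 0.976), while the gene model of YAP1 averaged under 1 CPM in every region and was not tested. TEAD4, MOB1A and SRF were not found by symbol and were not analysed here.

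Other YAP and TEAD targets were counted in the same way. Of 23 tested gene models 1 rose and 1 fell in central against nasal tissue, 0 passed in central against temporal tissue and 1 rose in temporal against nasal tissue (8.7%, 0% and 4.35%, against 18.4%, 6.78% and 6.59% of all gene models). With the replicate block 3 passed in central against nasal tissue, 2 in central against temporal tissue and 2 in temporal against nasal tissue. Of all gene models 27.9%, 12.7% and 13.9% passed with it. AMOTL2, a target that feeds back on YAP, fell by 0.50 on the log2 scale in central against nasal tissue (49.2 ± 2.49 and 69.6 ± 8.80 CPM, adjusted p = 0.00286 by edgeR). MYOF rose in the same contrast (log2 0.92, adjusted p = 0.0355) and TGFB2, a growth factor that induces CCN2, rose in temporal against nasal tissue (log2 0.75, adjusted p = 0.0333), but both calls were lost when any 1 of 6 and any 1 of 7 libraries was left out. ANKRD1, often read together with CCN1 and CCN2, was near the detection limit, at 0.517 ± 0.390, 0.467 ± 0.354 and 0.636 ± 0.110 CPM in central, temporal and nasal libraries.

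Immediate early genes, like CCN1, are transcribed within a short time of a stimulus such as serum. Of 13 tested gene models, JUNB rose in central against nasal tissue (6.49 ± 1.66 and 3.01 ± 1.49 CPM, adjusted p = 0.0214 by edgeR), BTG2 fell in temporal against nasal tissue (40.8 ± 5.53 and 55.5 ± 5.23 CPM, adjusted p = 0.0420), and 0 passed in central against temporal tissue. The share was 7.69% in each of the contrasts with a call, against 18.4% of all gene models in central minus nasal and 6.59% in temporal minus nasal. In central minus temporal 6.78% of all gene models passed. With the replicate block 4 passed in central minus nasal and 3 in temporal minus nasal, where 27.9% and 13.9% of gene models did. The JUNB call was lost without central replicate 1 (adjusted p = 0.0530), nasal replicate 2 (0.0609), nasal replicate 3 (0.0568) or nasal replicate 5 (0.0545), and that of BTG2 without any 1 of 8 libraries. FOS, a classical member, was at 2.93 ± 1.57 CPM in central, 4.13 ± 1.66 CPM in temporal and 4.12 ± 1.79 CPM in nasal libraries and passed in no contrast.

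Of the other proteins that carry an IGFBP module, more rose than fell in central tissue. Of 10 tested gene models 6 rose and 1 fell in central against nasal tissue, with a median log2 fold change of 1.06, 3 rose in central against temporal tissue with a median of 0.67, and 2 rose in temporal against nasal tissue with a median of 0.29. These are 70%, 30% and 20% of the list, against 18.4%, 6.78% and 6.59% of all gene models, whose medians were -0.03, -0.01 and -0.01. With the replicate block 7, 6 and 3 passed in the same order, where 27.9%, 12.7% and 13.9% of gene models did. Those in central against temporal tissue included IGFBP1 (adjusted p = 0.0374) and IGFBP4 (0.0428), which rose, and IGFBPL1 (0.00913), which fell. IGFBP5, a binding protein that modulates insulin-like growth factors in the matrix, averaged 16.1 ± 3.69 CPM in central, 6.76 ± 1.84 CPM in temporal and 2.98 ± 0.742 CPM in nasal libraries (SD, n = 5 each), and passed in all 3 contrasts (adjusted p = 7.81e-07, 0.00169 and 0.00406 for central minus nasal, central minus temporal and temporal minus nasal). HTRA3, a secreted serine protease, was at 21.7 ± 7.31 CPM in central, 7.77 ± 2.14 CPM in temporal and 9.24 ± 3.14 CPM in nasal libraries and rose in central against both. IGFBP1 was at 5.23 ± 3.48 CPM in central and 0.375 ± 0.103 CPM in nasal libraries, with overlap because central replicate 4 was at 0. Without that library its central mean was 6.53 ± 2.18 CPM. Its adjusted p by edgeR was then 1.33e-06 against nasal tissue and 0.000232 against temporal tissue (0.066 with that library). IGFBP1 (log2 3.79), IGFBP4 (1.38) and IGFBP7 (1.34), a vascular matrix protein, rose in central against nasal tissue (adjusted p = 0.00177, 0.00829 and 4.67e-05). HTRA1 (log2 0.44, adjusted p = 0.0384) rose there as well, and in temporal against nasal tissue with the replicate block (0.0171, against 0.159 without it), but lost the first call without any 1 of 5 libraries, as IGFBP7 did against temporal tissue (adjusted p = 0.0407) without any 1 of 9 and in temporal against nasal tissue (0.0312) without any 1 of 7. IGFBPL1, a retinal progenitor gene of the family, fell by 0.36 in central against nasal tissue (105 ± 9.20 and 136 ± 19.0 CPM, adjusted p = 0.0380), a call that was lost without any 1 of 8 libraries.

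Of the gene models of other matricellular proteins, more fell than rose in central tissue, but several of them belong to the same gene. Of 13 tested gene models 1 rose and 4 fell in central tissue against nasal as well as against temporal tissue, and 2 fell in temporal against nasal tissue, with medians of -0.40, -0.39 and -0.08. These are 38.5%, 38.5% and 15.4% of the list, against 18.4%, 6.78% and 6.59% of all gene models, and 3 of the 4 that fell against nasal tissue are gene models of TNC. Those that fell against temporal tissue are both gene models of TNR, 1 of TNC and that of SPP1. The shares therefore count some genes more than once. With the replicate block ANOSAT020215 of TNC also passed in central against temporal tissue (adjusted p = 0.0105, against 0.0600 without it). THBS1, an inhibitor of vessel growth and an activator of latent TGF-beta, rose against both regions: it averaged 136 ± 65.1 CPM in central, 66.3 ± 18.0 CPM in temporal and 59.4 ± 11.1 CPM in nasal libraries (adjusted p = 0.00145 against nasal and 0.0107 against temporal by edgeR). TNC, the adhesion-modulating tenascin C, was listed for 3 gene models that all fell in central against nasal tissue. The one with the most reads, ANOSAT020215, was at 102 ± 14.4 CPM in central, 134 ± 14.8 CPM in temporal and 191 ± 32.1 CPM in nasal libraries (adjusted p = 2.89e-05 against nasal). ANOSAT021808 lost its call without central replicate 5 (adjusted p = 0.0510), nasal replicate 1 (0.0615) or nasal replicate 4 (0.0503). Tenascin R (TNR), a tenascin of the nervous system, fell against temporal tissue in both of its gene models (adjusted p = 0.0127 and 0.00934). SPP1, osteopontin, was at 2.11 ± 0.849 CPM in central, 13.8 ± 12.2 CPM in temporal and 10.9 ± 13.9 CPM in nasal libraries, and its calls (adjusted p = 0.0431 against nasal and 0.0481 against temporal) were lost without any 1 of 8 and of 9 libraries. The fall of TNC ANOSAT020216 against temporal tissue (adjusted p = 0.0415) was lost without any 1 of 11.

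**Figure D5:**
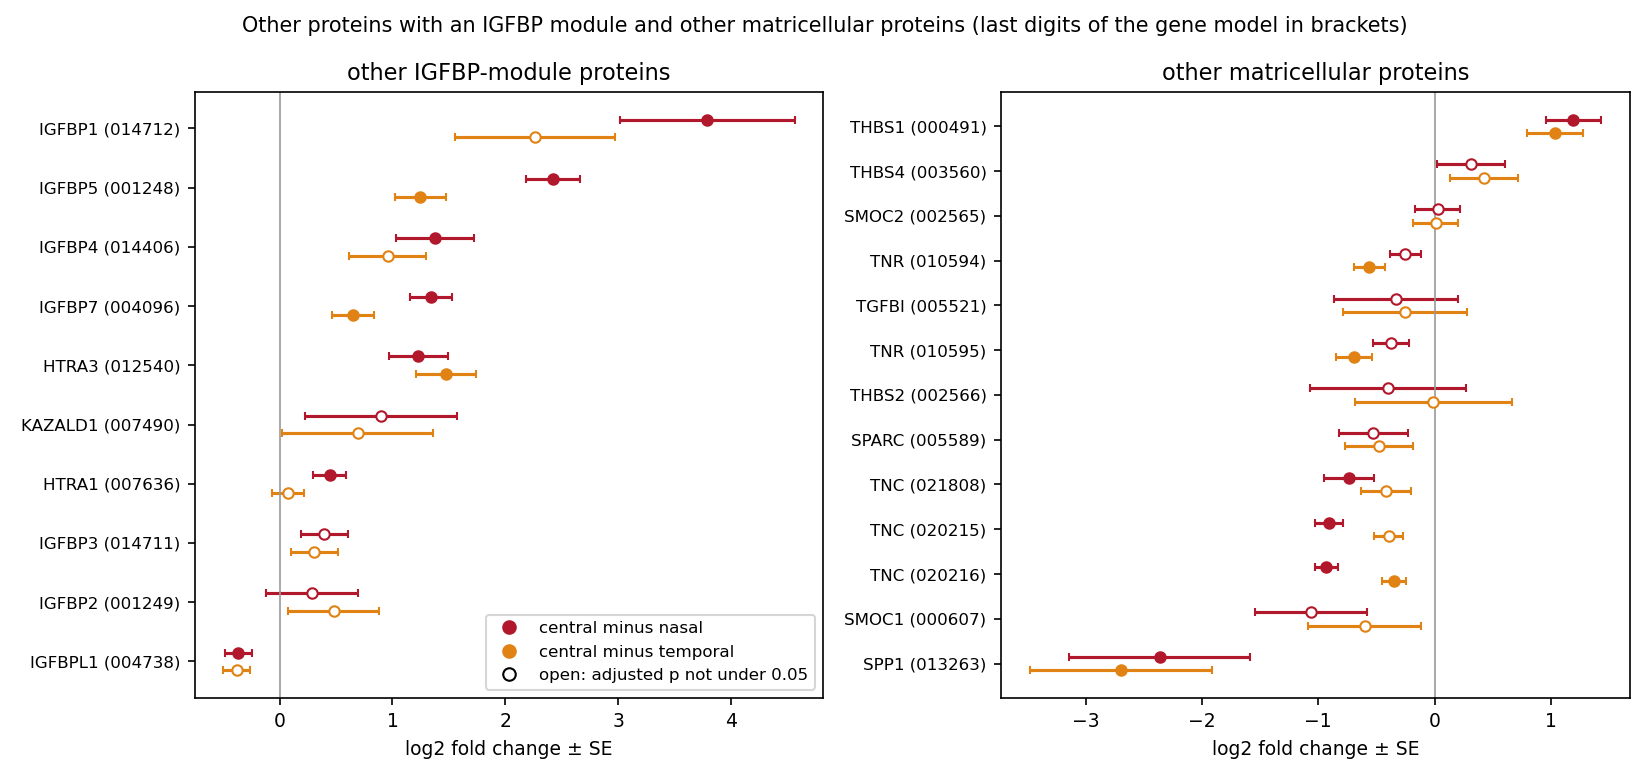
log2 fold change ± SE of other IGFBP-module proteins (left) and other matricellular proteins (right) for central minus nasal (red) and central minus temporal (orange), with filled circles for an adjusted p under 0.05. IGFBP1 at 3.79 and IGFBP5 at 2.42 lie farthest to the right against nasal tissue, and SPP1 at -2.36 farthest to the left. IGFBP1 averaged only 0.375 CPM in nasal libraries.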

How the data were processed

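Total RNA was isolated from the 15 pools with the mirVana kit, and TruSeq Stranded mRNA libraries were sequenced on a NextSeq 500. The values deposited by the authors are unnormalized read counts for gene models that carry a symbol. The submitters' processing notes name HISAT2 2.2.1 and featureCounts, and whether strand was used in counting is not stated there. The last line of the table lacks a line end, so some gene models may have been cut off.

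Counts were fitted in R 4.3.3 with edgeR 4.0.16 (filterByExpr by region with a minimum count of 10, TMM factors of 0.975 to 1.02, robust quasi-likelihood fit of all 15 libraries), with Benjamini-Hochberg adjustment over all 15910 tested gene models and a threshold of 0.05. log2 CPM used a prior count of 2. On simulated data the fit recovered 69, 68 and 68 of 100 changes of 2-fold and 92, 92 and 93 of 100 changes of 4-fold in central minus nasal, central minus temporal and temporal minus nasal. Unchanged genes gave 7, 8 and 11 false calls in the same order. Changed genes were drawn above a minimum mean count, and libraries were simulated as independent. The rates therefore do not cover lower counts, paired libraries or an outlier such as central replicate 4. The members and the lists of related genes and markers were chosen with earlier results of these data known. Named genes were all CCN gene models, members of 6 lists past the threshold (at most 6 per list and contrast, by size), the 10 profiles most like CCN3 and the 5 most like CCN1 and CCN2 among gene models with a mean of at least 5 CPM. Some genes that this rule names are not reported here. Genes named with values although outside that rule were chosen after their values were seen.

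Replicate numbers come from the labels, which do not say what a number shares. Deviations from the region mean correlated over 0.1 in all 15 same-numbered pairs (0.193 to 0.524), against 3 of 60 other pairs. The numbers thus appeared to pair the libraries. The main fit nevertheless used region only, with the replicate block as an alternative, so its p-values ignore that pairing. Nothing says that the 5 pools of a region came from separate clutches, so p-values measure the spread between these libraries. Libraries of a region differed by more than sampling noise (chi-square per degree of freedom 10.3 to 66.9 over 30 pairs). Alternatives were RLE and upper-quartile scaling, DESeq2 1.42.0, limma-voom with quality weights (limma 3.58.1), no filter, a stricter filter (30 counts in 5 libraries), 2 regions only, the replicate block and each library left out, plus 2 added after seeing the data. Limits for a count of 0 (3 reads) cover counting error only. RefSeq neighbours are from assembly rAnoSag1.mat, of which no coordinates were used. Python 3.11.15 with matplotlib 3.10.9 drew the plots.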

Additional observations from a re-analysis of the deposited data

Results flagged for a closer look

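In each region the highest and lowest of 5 libraries were compared with the rest by Dixon's test (critical value 0.71), for 8 CCN gene models and 11 marker sums. Of these 57 tests 6 passed, where chance gives about 1 in 20. Both CCN1 gene models and the CCN2 gene model with more reads were far higher in central replicate 4 than in the other central libraries: CCN1 (ANOSAT010317) at 71.8 against 25.7 to 37.5 CPM, CCN1 (ANOSAT005338) at 3.20 against 0.445 to 1.07 CPM, and CCN2 (ANOSAT002384) at 91.7 against 20.03 to 36.8 CPM. The same library stood apart in the connective tissue marker sum (3000 against 304 to 1041 CPM) and in the endothelial and mural marker sum (397 against 211 to 235 CPM). CCN6 was at 0.922 CPM in temporal replicate 1, from 14 reads, against 0.125 to 0.318 CPM in the other temporal libraries.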

How the results depend on the processing

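CCN1 (ANOSAT010317) was called in central minus nasal under every alternative run. The number of CCN gene models called changed from 1 to 2 by DESeq2 and to 3 with the replicate block in central minus nasal (1 to 2 with each library left out), from 0 to 1 with the block in central minus temporal (0 to 0), and from 0 to 1 by limma-voom or with the block without central library 4 in temporal minus nasal (0 to 0). Over all gene models, limma-voom called 4639 in central minus nasal and 2415 in temporal minus nasal, the block called 4437, 2022 and 2214, and the block without central library 4 called 5095, 2272 and 3378 in central minus nasal, central minus temporal and temporal minus nasal, against 2926, 1079 and 1048. Leaving out each library gave 2404 to 3303, 796 to 1197 and 680 to 1485, the 680 without nasal replicate 5. The direction of CCN2 (ANOSAT002384) in central minus temporal turned to -0.019 by limma-voom, -0.067 without central replicate 4 (range -0.067 to 0.60), -0.071 with the block without central library 4 and -0.0416 without the 3 libraries numbered 4. CCN4 in central minus nasal turned to -0.00025 with the block, -0.050 with the block without central library 4 and -0.19 without the 3 libraries numbered 4 (range with each library left out -0.17 to 0.18). The low copies turned too, CCN1 (ANOSAT005338) with ranges of -0.81 to 0.16, -0.91 to 0.13 and -0.20 to 0.23 and -0.059 by limma-voom in temporal minus nasal, and CCN2 (ANOSAT016264) with -0.29 to 0.34, -0.23 to 0.41 and -0.37 to 0.25. The causes were not tested.

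Counts of list members called moved as follows, beyond the block counts given with the lists above. In central minus nasal, receptors went to 3 without a filter, 2 in the fit of 2 regions and 3 without the libraries numbered 4 (3 to 6 with each library left out), upstream regulators to 2 by limma-voom, 5 with the block and 4 with the block without central library 4 (1 to 2), YAP targets to 5 by limma-voom, 1 without a filter, 1 in the fit of 2 regions and 4 with the block without central library 4 (1 to 3), immediate early genes to 2 by limma-voom, 4 with the block, 2 with the block without central library 4 and 2 without the libraries numbered 4 (0 to 2), and matricellular proteins ranged from 3 to 7. In central minus temporal, receptors went to 1 in the fit of 2 regions (1 to 3), YAP targets to 2 by DESeq2, limma-voom, the block and without the libraries numbered 4, and 5 with the block without central library 4 (0 to 1), matricellular proteins to 8 with the block without central library 4 and 2 without the libraries numbered 4 (3 to 6), and IGFBP-module proteins to 5 by DESeq2, limma-voom and without the libraries numbered 4 and 6 with the block, with and without central library 4 (2 to 4). In temporal minus nasal, receptors went to 1 by DESeq2 and limma-voom and 2 with the block, with and without central library 4 (0 to 0), upstream regulators to 1 with the block, with and without that library (0 to 1), YAP targets to 3 by DESeq2, limma-voom and the fit of 2 regions, 2 with the block and 6 with the block without central library 4 (0 to 2), immediate early genes to 2 by DESeq2, 3 by limma-voom, 3 with the block and 6 with the block without central library 4 (0 to 1), matricellular proteins to 1 without the libraries numbered 4 (2 to 2), and IGFBP-module proteins to 4 with the block without central library 4 (1 to 3). Of 38 calls of list members, 22 held with each library left out and 16 were lost without at least 1 of them. Apart from the values given here and beside the members, the block changed no other call of a CCN gene model. The depth limits CCN6 and both low copies.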

Other observations

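Genes that lie beside CCN gene models in the table were compared as well, chosen for their position with their values known. ZNHIT6 (by CCN1), ENPP1 and MOXD1 (by CCN2), NDRG1 (by CCN4), and FYN and TUBE1 (by CCN6) passed in no contrast without the replicate block. In that order their adjusted p for central minus nasal was 0.272, 0.490, 0.0672, 0.401, 0.932 and 0.824 by edgeR. There 18.4% of all gene models passed. With the block MOXD1 passed in that contrast (0.0204). Neighbours that passed follow. ENPP2 (autotaxin), next to CCN3, averaged 81.7 ± 24.5 CPM in central, 63.9 ± 5.89 CPM in temporal and 35.8 ± 6.81 CPM in nasal libraries (SD, n = 5 each). It rose in central against nasal tissue (log2 1.19, adjusted p = 5.14e-05 by edgeR) and in temporal against nasal tissue (0.84, adjusted p = 0.00425). MAL2, on the other side of CCN3, was at 9.41 ± 3.56 CPM in central, 6.004 ± 0.850 CPM in temporal and 5.55 ± 0.854 CPM in nasal libraries (adjusted p = 0.0264 for central minus nasal by edgeR). Neither neighbour passed the test in central minus temporal (adjusted p = 0.276 for ENPP2 and 0.111 for MAL2).

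ADA (adenosine deaminase), next to CCN5, was at 3.59 ± 0.640 CPM in central, 1.03 ± 0.240 CPM in temporal and 0.953 ± 0.295 CPM in nasal libraries (SD, n = 5 each). It rose in central tissue against both regions (adjusted p = 0.000352 against nasal and 0.00162 against temporal by edgeR), whereas CCN5 itself passed in neither contrast without the replicate block. DDAH1, next to CCN1, was at 79.0 ± 11.9 CPM in central, 70.9 ± 7.57 CPM in temporal and 61.9 ± 5.42 CPM in nasal libraries (adjusted p = 0.0339 for central minus nasal).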
